A study of Mus musculus with 9 samples.

Results

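The semaphorins, Slits and ephrins are guidance cues, and this account follows them with their receptors (plexins, neuropilins, Robo proteins and Eph kinases) in 3T3 cells, an immortalised mouse embryonic fibroblast line. Members were chosen by symbol: every gene with 1 annotated symbol of the Sema, Plxn, Slit, Robo, Efna, Efnb, Epha or Ephb series, plus Nrp1 and Nrp2, without the Slitrk genes. The rule gave 58 of the 19698 genes measured: 20 semaphorins, 9 plexins, 2 neuropilins, 3 Slits, 4 Robo genes, 5 ephrin-A and 3 ephrin-B genes, and 8 EphA and 4 EphB receptor genes. 4 of these genes, Epha10, Ephb1, Sema4d and Sema6b, were represented by several transcript clusters (groups of probes summarised to 1 value), of which the one with the highest mean was used. Epha4 and Ephb2 were not analysed here. No filter on low values was applied, so all 58 were tested.

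Total RNA from subconfluent cultures was hybridised to 9 one-colour Affymetrix arrays, 3 in each of 3 groups. Control cells without knockdown were either unstimulated or treated with mouse TNF-α at 5 ng/ml for 1 h. The remaining group carried the BAF knockdown and received the same TNF-α treatment; an unstimulated knockdown group was not analysed here. BAF is a nucleosome remodelling complex whose catalytic subunit is either Brg1 (Smarca4) or Brm (Smarca2), and the knockdown was stable, by 1 short hairpin against a sequence common to both mRNAs, expressed from the U6 promoter of a retroviral vector with GFP in cells sorted for high GFP. The labels and methods do not say which vector, if any, the control cells carried. The study's replicates were independent experiments performed on different days. Arrays of the same replicate number were treated here as 1 experiment, which the labels and methods do not state.

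Guidance cues were named for steering axons, but the same proteins act in many tissues on cell shape, adhesion and migration. Secreted class 3 semaphorins bind neuropilins, which lack signalling activity of their own and pair with plexins, whereas most membrane-bound semaphorins bind plexins directly. Secreted Slits bind Robo receptors, with heparan sulphate proteoglycans as helpers. Ephrins are held on the cell surface, the A class by a lipid anchor and the B class by a transmembrane segment, and on contact with Eph receptor tyrosine kinases signals can pass into both cells. TNF-α is an inflammatory cytokine that acts on transcription largely through NF-κB and AP-1.

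4 promoters are shown because their genes carry the contrasts described below: the neuropilins Nrp1 and Nrp2 differed in opposite directions in knockdown cells, and Sema7a and Ephb3 had the largest positive and the largest negative TNF-α differences of the family. Each sequence is the 250 bases before the RefSeq transcription start in GRCm38.p6, read 5′ to 3′ on the plus strand, with CpG dinucleotides in capitals. They lie at chr8:128358823-128359072 (Nrp1), chr1:62703067-62703316 (Nrp2), chr9:57939862-57940111 (Sema7a) and chr16:21204545-21204794 (Ephb3).
Nrp1: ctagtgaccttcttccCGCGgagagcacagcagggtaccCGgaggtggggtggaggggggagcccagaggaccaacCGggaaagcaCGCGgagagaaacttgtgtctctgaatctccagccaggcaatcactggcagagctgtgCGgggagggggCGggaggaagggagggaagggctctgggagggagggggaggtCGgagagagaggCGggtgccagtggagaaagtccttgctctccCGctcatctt
Nrp2: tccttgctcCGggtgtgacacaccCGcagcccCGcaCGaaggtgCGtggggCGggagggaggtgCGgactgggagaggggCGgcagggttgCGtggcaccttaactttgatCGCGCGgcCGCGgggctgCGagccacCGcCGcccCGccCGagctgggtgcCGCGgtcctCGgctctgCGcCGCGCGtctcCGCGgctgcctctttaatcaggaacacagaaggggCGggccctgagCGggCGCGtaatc
Sema7a: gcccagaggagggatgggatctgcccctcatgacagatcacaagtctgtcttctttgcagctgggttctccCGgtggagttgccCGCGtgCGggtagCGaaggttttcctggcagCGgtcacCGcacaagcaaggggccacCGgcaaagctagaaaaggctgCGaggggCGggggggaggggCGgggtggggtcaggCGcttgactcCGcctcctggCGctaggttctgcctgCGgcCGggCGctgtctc
Ephb3: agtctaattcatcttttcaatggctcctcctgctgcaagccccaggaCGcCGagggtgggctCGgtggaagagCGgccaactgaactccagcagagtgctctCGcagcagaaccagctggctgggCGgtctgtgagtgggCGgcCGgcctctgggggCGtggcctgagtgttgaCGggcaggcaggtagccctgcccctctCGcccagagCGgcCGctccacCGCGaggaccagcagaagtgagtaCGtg
The Nrp1 stretch holds 11 CpG dinucleotides, against 32 in Nrp2, 17 in Sema7a and 16 in Ephb3. Over the whole window, which adds 50 bases after the start, the ratio of observed to expected CpG was 0.47 for Nrp1, 0.99 for Nrp2 and 0.69 for both Sema7a and Ephb3.

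Promoter windows were found for 51 of the 58 genes, 67 windows in all, so a gene with several windows counts more than once. The windows they are set against are those of 27025 genes and were not limited to genes measured on the arrays. A window counted as CpG-rich where its GC content exceeded 50% and its observed-to-expected CpG ratio exceeded 0.6, which held for 38 of the 67 (56.7%) and for 33.3% of all 32851 windows. A form of the NF-κB motif, GGGA and TTCC with any 2 bases between them, was searched on both strands and occurred in 0 of the 67, against 1.47% of all windows. TGANTCA, the AP-1 motif, occurred in 3 (4.48%) against 7.81%, and TATAAA in 2 (2.99%) against 13.6%. A match describes letters in this window only.

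The arrays were alike in overall signal, with medians between 7.77 and 7.83 on the log2 scale and correlations between 0.992 and 0.998. Smarca4 read 11.62, 11.53 and 11.56 in TNF-α-treated control arrays 1 to 3 and 10.50, 10.64 and 10.25 in knockdown arrays 1 to 3. The difference was -1.11 ± 0.09 SE (adjusted p = 0.00362 without and 0.00124 with the replicate block described below). Smarca2 differed by -0.36 ± 0.20 (adjusted p = 0.734 without and 0.129 with the block), so its lower level was not called. The paper reports from quantitative RT-PCR that the hairpin reduced both transcripts. Why the Smarca2 difference was not called on the arrays was not tested. Of the fibroblast markers, 16 of 19 lay above the median gene, against 2 of 14 neuron, 1 of 12 endothelial, 2 of 11 epithelial and 1 of 12 leukocyte markers. The mean level of the fibroblast list was 10.82 to 11.03 in TNF-α-treated control arrays and 10.47 to 10.67 in knockdown arrays. Without the block 0 of its genes were called (all genes 0.137%). With it, 5 (26.3%, all genes 2.33%) were lower, namely Dcn, Col3a1, S100a4, Pdgfra and Col6a1. The list median was -0.14, with Dcn at -2.13 and S100a4 at -1.18, while Vim (-0.01), Sparc (0) and Prrx1 (0.01) hardly differed. What part the lower level of this list has in the results below was not tested.

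The signals of the guidance genes spanned most of the range of the arrays. Against quartiles of all gene means at 6.61, 8 and 9.90, 7 guidance genes lay below the lower quartile, 22 between it and the median, 17 between the median and the upper quartile and 12 above that. Whether the dimmest signals exceeded background was not tested. The brightest were Plxnb2 (mean over 9 arrays 12.14), the class 3 semaphorin Sema3c (11.96), Slit2 (11.69), Plxna1 (11.52) and Nrp1 (11.19), although signals of different probe sets do not rank transcripts by abundance. Among the other families the highest were Ephb4 (10.40), Epha2 (10.28), Efna4 (10.16), Robo1 (9.84) and Efnb1 (9.33). The lowest EphA genes, Epha3, Epha5 and Epha6, read 5.89, 5.77 and 5.93, whereas Epha7 read 8.48.

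**Figure D1:**
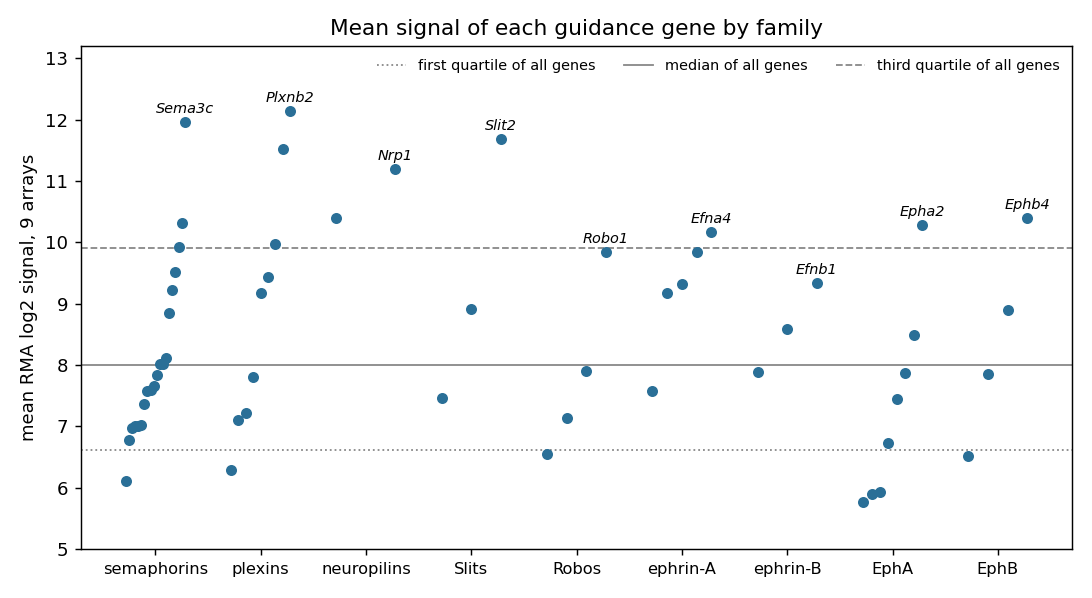
Mean RMA log2 signal over 9 arrays (vertical axis) of each of the 58 guidance genes, 1 point per gene, by family; horizontal lines mark the quartiles of all 19698 gene means. Plxnb2 is the highest point at 12.14, and 29 of the 58 points lie above the median line.

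Several of these genes varied between replicate numbers even in control cells. Taking the mean of the unstimulated and TNF-α-treated control arrays of each replicate number, the median range over the 3 numbers was 0.20 for guidance genes and 0.12 for all genes, and the range exceeded 0.5 for 7 guidance genes (12.1%) against 4.59% of all genes. The widest was Robo2, a Slit receptor, with 7.78, 8.74 and 7.78 for numbers 1 to 3. Slit3 followed with 8.84, 9.39 and 8.69, then Sema6d, Ephb3, Sema3c, Epha7 and Plxnd1 with ranges from 0.69 down to 0.54. Each comparison is therefore given both without and with the replicate number as a block, the latter measuring differences within a replicate number. The error of the blocked fit is pooled over all 9 arrays, so it is not the spread of the 3 differences of a single comparison. All errors given as ± SE are from the fit without the block.

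The first comparison asked how 1 h of TNF-α altered these genes in control cells. The median guidance gene differed by -0.03 and the median of all genes by 0, with guidance genes ranging from -0.61 (Ephb3) to 0.40 (Sema7a). Without the block 0 of 58 passed an adjusted p of 0.05 (0.137% of all genes did, in either direction), and 2 of 58 were below an unadjusted 0.05 (all genes 3.07%), both lower, Ephb3 and Efna1. With the block, 1 of 58, Ephb3, was called lower (all genes 0.0305%) and 0 higher (all genes 0.366%). The groups did not overlap for 2 members that were higher, Sema7a and Epha10 (all genes 3.19%), and 3 that were lower, Efna1, Plxna3 and Plxnb1 (all genes 2.78%).

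Ephb3, a receptor kinase for B-class ephrins, read 9.34, 9.76 and 9.12 in unstimulated arrays 1 to 3 and 8.61, 9.20 and 8.57 after TNF-α. Each treated array was below the unstimulated array of its number, by 0.73, 0.56 and 0.55, although the highest treated array exceeded the lowest unstimulated one. The difference of -0.61 ± 0.24 SE, 1.53-fold lower, had an adjusted p of 1 without the block and 0.00653 with it. The other EphB genes were not called, with Ephb4 at -0.11 ± 0.08, Ephb6 at -0.14 ± 0.13 and Ephb1 at 0.01 ± 0.06.

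Efna1, an A-class ephrin first described as a TNF-inducible gene of endothelial cells, read 9.41, 9.56 and 9.71 in unstimulated cells and 8.69, 9.23 and 9.24 after TNF-α. All 3 treated arrays lay below all unstimulated ones, but the difference of -0.50 ± 0.19 (1.42-fold lower) did not pass (adjusted p = 1 without and 0.138 with the block). Its receptor Epha2 differed by 0.32 ± 0.17 (adjusted p = 1 and 0.11). The other 4 A-class ephrins lay between -0.08 and 0.04.

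Sema7a, a lipid-anchored semaphorin that binds plexin C1 and integrins, read 7.70, 7.32 and 7.61 in unstimulated cells and 8.08, 7.77 and 7.98 after TNF-α. The treated arrays were all above the unstimulated ones and the differences within a number were 0.37, 0.45 and 0.37, yet the difference of 0.40 ± 0.21 did not pass (adjusted p = 1 without and 0.558 with the block). Plexins, the semaphorin receptors, had a median of -0.09 with 8 of 9 below 0, the most negative being Plxna1 at -0.30 ± 0.15 (adjusted p = 1 and 0.0761), and none was called. Both neuropilins, all 3 Slits and all 4 Robo genes lay between -0.08 and 0.02. The study's cut of 0.35 applied to increases, together with a Student's test, and the paper lists public arrays for TNF-α activation in fibroblasts. Taken here by size alone in both directions, the cut was exceeded by 1 member that was higher, Sema7a (all genes 0.985%). In the lower direction 2 exceeded it, Ephb3 and Efna1 (all genes 0.162%).

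**Figure D2:**
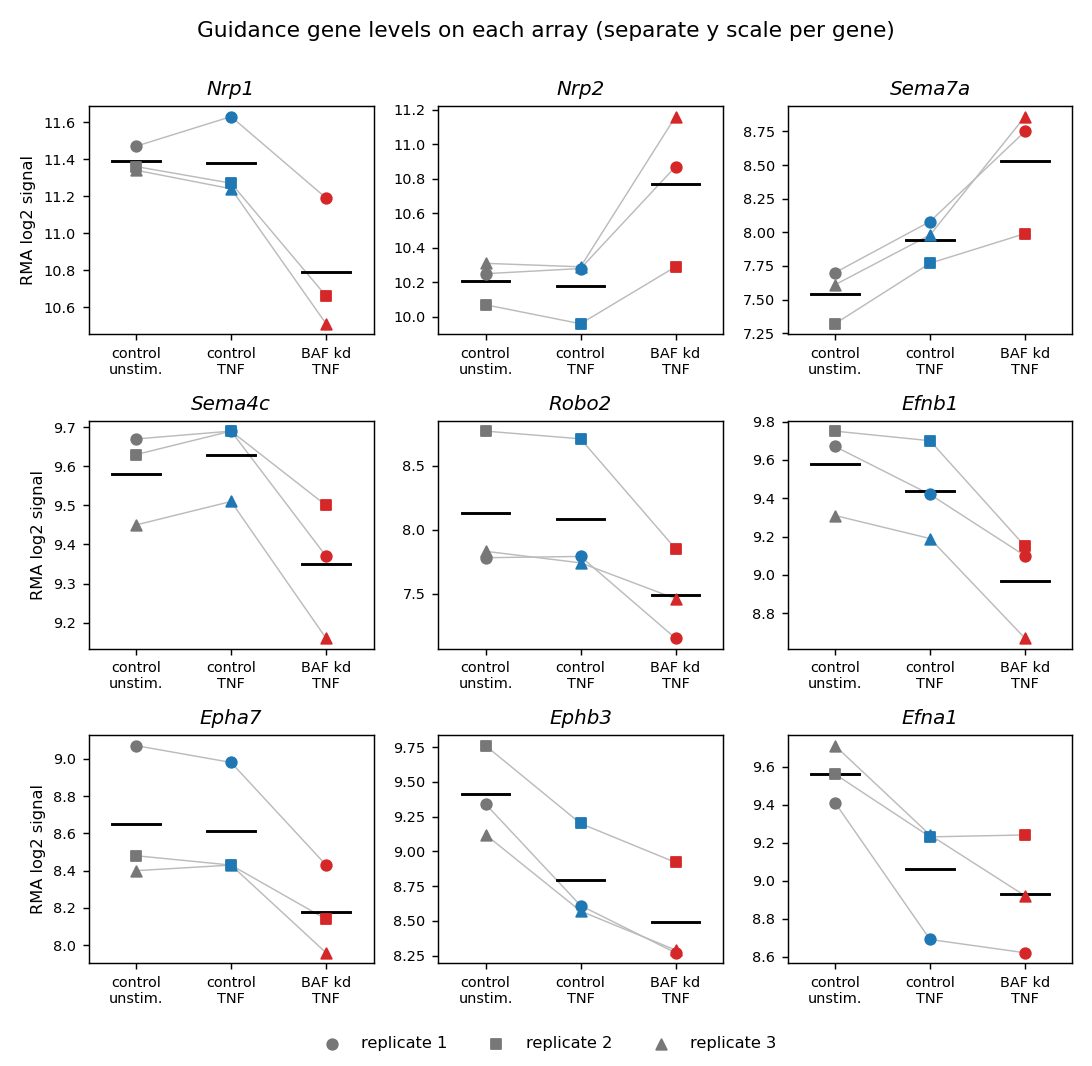
RMA log2 signal (vertical axes, a separate scale per gene) of 9 guidance genes on each array of unstimulated control, TNF-α-treated control and TNF-α-treated BAF-knockdown cells; marker shape gives the replicate number, grey lines join arrays of the same number and black bars are group means. The joined lines for Ephb3 run downward at both steps, while those for Nrp1 and Nrp2 are nearly flat between the control groups and part in opposite directions in knockdown cells.

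The second comparison set BAF-knockdown against control cells, both treated with TNF-α, and uses the same treated control arrays as the first. As no unstimulated knockdown arrays were analysed, a difference present before TNF-α and an altered response to it cannot be told apart. The median difference was -0.01 for guidance genes and 0.01 for all genes. Without the block 0 of 58 were called (all genes 0.137%), and 6 of 58 were below an unadjusted 0.05 (all genes 8.43%): Nrp2 and Sema7a higher, Nrp1, Sema4c, Efnb1 and Efna3 lower. With the block, 6 of 58 (10.3%) were called lower, namely Nrp1, Robo2, Efnb1, Epha7, Sema4c and Ephb3 (all genes 2.33%), and 2 (3.45%) higher, Nrp2 and Sema7a (all genes 0.98%). The groups did not overlap for 7 members that were lower, namely Nrp1, Efnb1, Epha7, Sema4c, Efna3, Sema3d (-0.13) and Plxnb1 (-0.10), or 12.1% (all genes 5.47%) and 1 that was higher, Sema6a at 0.08 (all genes 4.63%). Differences beyond 0.3 were found for 8 members in the lower direction (13.8%, all genes 3.27%) and 2 in the higher (all genes 1.87%). In RNA from whole cultures, fewer cells expressing a gene and less of its RNA per cell cannot be told apart.

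The neuropilins, co-receptors for class 3 semaphorins and for vascular endothelial growth factors, differed in opposite directions. Nrp1, best known as the co-receptor for Sema3a, read 11.63, 11.27 and 11.24 in control arrays 1 to 3 and 11.19, 10.66 and 10.51 in knockdown arrays. Every knockdown array was below every control array, and the difference of -0.60 ± 0.17 SE (1.51-fold lower) had an adjusted p of 0.281 without the block and 0.0178 with it. Nrp2, which prefers Sema3f, read 10.28, 9.96 and 10.29 in control and 10.87, 10.29 and 11.16 in knockdown arrays. Here knockdown array 2 reached only the level of the highest control arrays, and the difference of 0.59 ± 0.20 (1.51-fold higher) had an adjusted p of 0.396 without and 0.029 with the block. Neither neuropilin differed by more than 0.03 in mean between the control groups.

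The membrane-bound semaphorins called with the block differed in opposite directions. Sema7a read 8.08, 7.77 and 7.98 in control and 8.75, 7.99 and 8.86 in knockdown arrays, again with knockdown array 2 within the control range (difference 0.59 ± 0.21, adjusted p = 0.453 without and 0.0382 with the block). Sema4c, a transmembrane ligand of plexin B2, read 9.69, 9.69 and 9.51 in control and 9.37, 9.50 and 9.16 in knockdown arrays. All 3 of its knockdown arrays lay below the control arrays, the nearest pair reading 9.50 and 9.51, and the difference was -0.29 ± 0.10 (1.22-fold lower, adjusted p = 0.415 and 0.0314). Sema6d at -0.33 ± 0.21 (adjusted p = 0.795 and 0.254) was not called.

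Of the other semaphorins, the secreted ligands of the neuropilins showed no called difference. Sema3a differed by -0.10 ± 0.22, Sema3c by 0.04 ± 0.20 and Sema3f by 0.03 ± 0.13, and over all 20 semaphorins the median was 0.02, with 11 above 0 and 9 below. Plexins ranged from -0.14 ± 0.09 (Plxnb2) to 0.14 ± 0.15 (Plxna1), and 0 of 9 were called in either fit.

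Among the Slits and their receptors, Robo2 was called with the block. It read 7.79, 8.71 and 7.74 in control and 7.15, 7.85 and 7.46 in knockdown arrays, so that number 2 was high in both groups and the groups overlapped. The differences within a number were -0.64, -0.86 and -0.28, and the mean difference of -0.60 ± 0.34 (1.51-fold lower) had an adjusted p of 0.744 without the block and 0.0267 with it. Its paralogue Robo1, with the higher signal, differed by -0.11 ± 0.13. The ligands were not called, with Slit2 at 0.24 ± 0.12 (adjusted p = 0.682 and 0.268), Slit3 at -0.15 ± 0.24 and Slit1 at 0.02 ± 0.09.

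The ephrins and Eph receptors called with the block were all lower. Efnb1, a transmembrane ephrin, read 9.42, 9.70 and 9.19 in control and 9.10, 9.15 and 8.67 in knockdown arrays, and the groups did not overlap (difference -0.46 ± 0.17, 1.38-fold lower, adjusted p = 0.481 without and 0.00715 with the block). Epha7, a receptor for A-class ephrins, read 8.98, 8.43 and 8.43 in control and 8.43, 8.14 and 7.96 in knockdown arrays. The highest knockdown array lay at the lowest control level for Epha7, and the difference was -0.44 ± 0.21 (1.35-fold lower, adjusted p = 0.662 and 0.0151).

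Ephb3 read 8.61, 9.20 and 8.57 in control and 8.27, 8.92 and 8.29 in knockdown arrays, with differences within a number of -0.35, -0.29 and -0.28. The groups overlapped because number 2 was high in both. The difference of -0.30 ± 0.24 had an adjusted p of 0.859 without the block and 0.0407 with it, where the SE was 0.06. The other ephrin-B genes, Efnb2 and Efnb3, differed by 0.19 ± 0.15 and 0.03 ± 0.05.

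The 5 A-class ephrins all had negative differences, with a median of -0.13, and none was called. Efna3 came nearest without the block (-0.34 ± 0.08, adjusted p = 0.193) and had 0.0879 with it, its knockdown arrays all lying below the control arrays. Efna4 differed by -0.31 ± 0.19 (adjusted p = 0.79 and 0.0638). Efna1, at -0.13 ± 0.19, and Efna2 and Efna5, both at -0.03, differed by less than their errors without the block. With the block the SE of Efna1 was 0.1 (adjusted p = 0.706).

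**Figure D3:**
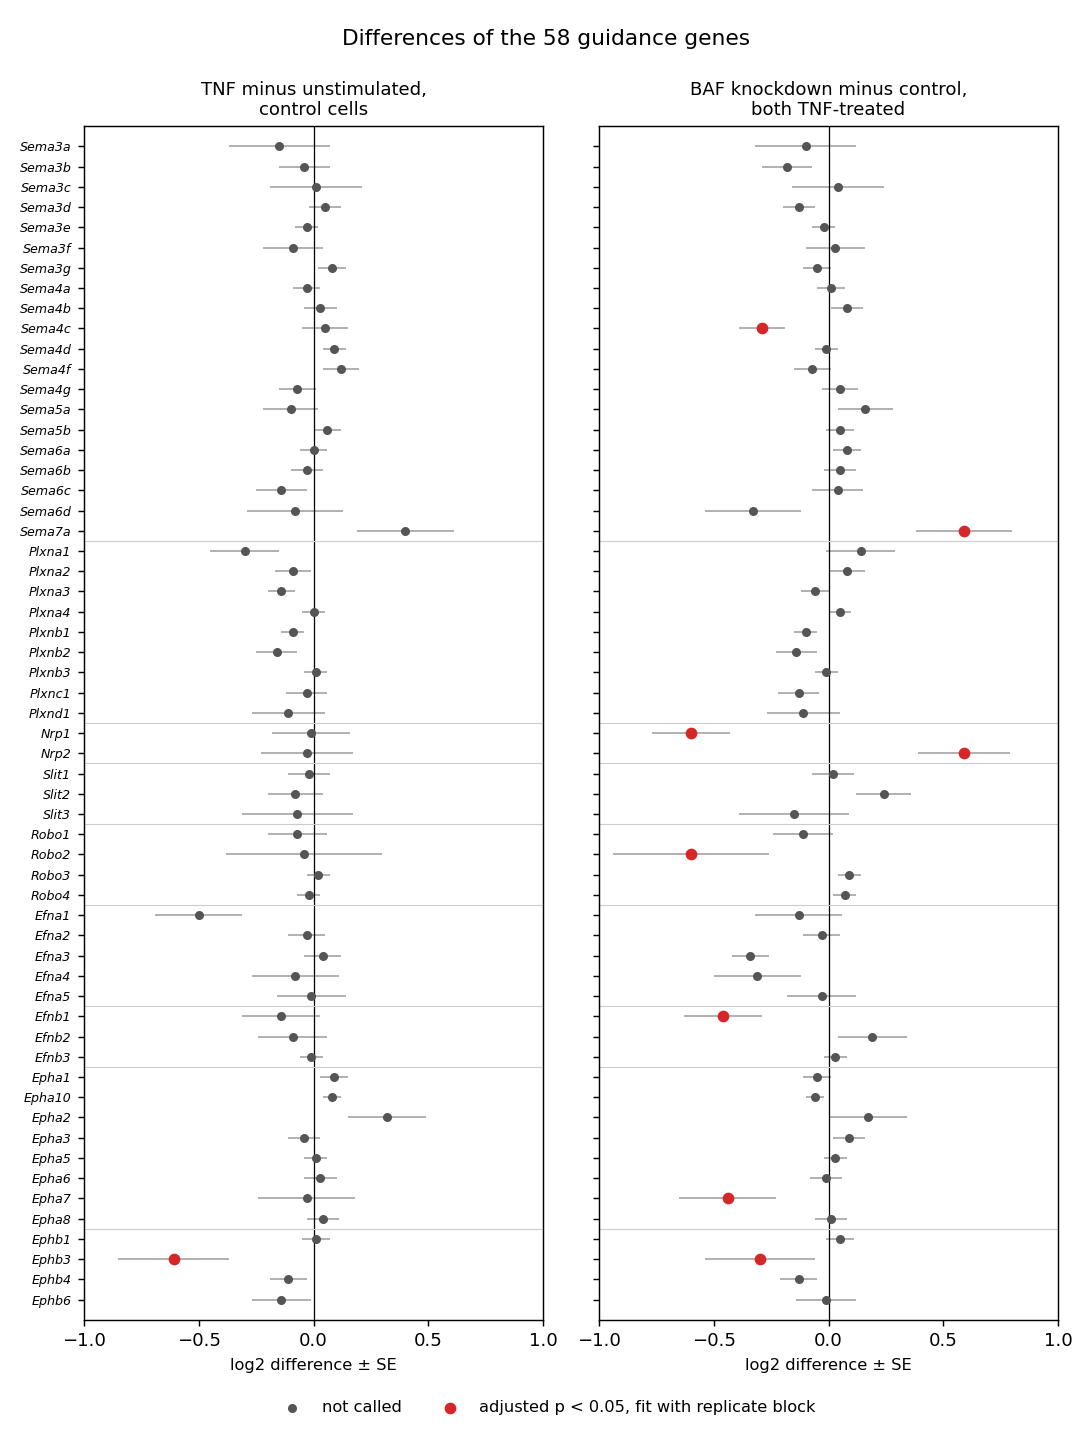
Log2 difference ± SE from the fit without the block (horizontal axes) for each of the 58 guidance genes, TNF-α-treated minus unstimulated control cells on the left and TNF-α-treated knockdown minus TNF-α-treated control cells on the right; red points passed an adjusted p of 0.05 with the replicate block. There is 1 red point on the left, Ephb3 at -0.61, and 8 on the right, between -0.60 and 0.59.

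The 8 knockdown calls rest on the block, on individual arrays and on including the unstimulated arrays in the fit. Of 18 other settings of the blocked fit (17 for Robo2), Efnb1 was called in 14, Epha7 in 12, Nrp1 in 10, Nrp2 in 9, Robo2 in 8, Sema7a in 7, Sema4c in 6 and Ephb3 in 4. Fitting only the 2 groups compared, without the unstimulated arrays, ended all 8. Leaving out TNF-α-treated control array 3 alone also ended all 8, and leaving out treated control array 1 left 1 lower, Efnb1, and 0 higher. Of the 6 lower calls, Efnb1 and Epha7 were kept without treated control array 2, Efnb1 and Nrp1 without knockdown array 1, and Efnb1, Epha7 and Robo2 without knockdown array 3, and neither higher call was kept in these settings. Other guidance genes passed instead in some of them, Efna3 lower without treated control array 2 and Sema5a higher without knockdown array 3. Without unstimulated array 1, 2 or 3, 4 of the 6 lower calls were kept each time, with Nrp2 as the 1 higher call kept without array 2 or 3 and 0 without array 1. Without knockdown array 2 all 8 were kept with the block, Efna3 and Efna4 were also lower, and Nrp2 (0.83) and Sema7a (0.86) were called higher even without the block. In the TNF-α comparison the same omission brought Sema7a (0.40, adjusted p = 0.0401) and Efna1 (-0.50, adjusted p = 0.0412) past the threshold with the block. The Ephb3 call after TNF-α was kept in 13 of 18 settings and lost without treated control array 1 or 3 and without all arrays of any 1 number.

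**Figure D4:**
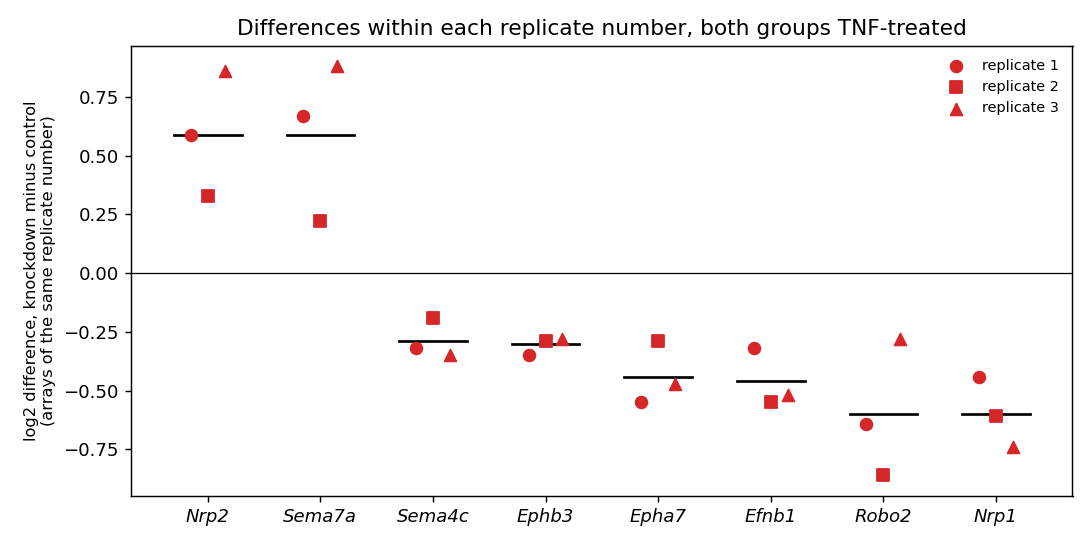
Log2 difference between the knockdown and the control array of the same replicate number, both TNF-α-treated (vertical axis), for the 8 guidance genes called with the block; marker shape gives the number and black bars are means of the 3. All 3 differences have the same sign for each gene, which the choice of genes by the blocked fit favours, so it is not separate evidence. Number 2 gives the smallest size for Nrp2 (0.33) and Sema7a (0.22) but the largest for Robo2 (-0.86) and Efnb1 (-0.55).

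Downstream partners were described from lists of pathway genes. Of the plexin and neuropilin signalling list 36 of 38 genes were measured, and Rnd1, which binds plexins, rose after TNF-α: it read 9.66, 9.12 and 9.92 in unstimulated and 11.43, 11.05 and 11.23 in treated control arrays, with no overlap (difference 1.67 ± 0.21, adjusted p = 0.0297 without and 0.000689 with the block). It was the only gene of the 3 lists called in that comparison, 1 of 36 in its own list (2.78%). Of all genes, 0.137% were called without the block and 0.366% were called higher with it. The medians of the lists were -0.02, -0.04 and -0.02. The next largest differences were those of Rnd3 (0.44 ± 0.22), Sdc4 (0.43 ± 0.16), Flrt3 (0.31 ± 0.11) and Rgs3 (0.29 ± 0.06), none of them called. In knockdown cells Rnd1 differed by 0.13 ± 0.21 (adjusted p = 0.945), and 0 genes of the plexin list were called without the block. With it, 1 of 36 (2.78%, all genes 0.98%) was higher and 2 (5.56%, all genes 2.33%) were lower. Farp2, a plexin-associated exchange factor, was higher (0.36 ± 0.07, adjusted p = 0.0371), and the actin regulator Limk1 (-0.34 ± 0.09, 0.0222) and the semaphorin effector Dpysl3 (-0.49 ± 0.24, 0.0497) were lower.

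Of the Slit and Robo signalling list 28 of 29 genes were measured, with 0 called in knockdown cells without the block and 3 lower with it (10.7%, all genes 2.33%). Sdc1 and Sdc3, syndecans that carry heparan sulphate, differed by -0.51 ± 0.09 (adjusted p = 0.0795 without and 0.00389 with the block) and -0.32 ± 0.06 (0.0942 and 0.0453), and the actin regulator Enah by -0.28 ± 0.08 (0.256 and 0.0381). The other heparan sulphate proteoglycans of the list were not called, with Gpc1 at 0.48 ± 0.15 (adjusted p = 0.364 and 0.153), Sdc2 at 0.04 ± 0.08 and Sdc4 at 0.08 ± 0.16. Flrt2, a membrane protein of the FLRT family, had a larger difference of -0.83 ± 0.18 that was not called (adjusted p = 0.151 and 0.05). Of the ephrin and Eph signalling list 40 of 43 were measured, again with 0 called without the block, and with it 2 higher (5%, all genes 0.98%) and 1 lower (2.5%, all genes 2.33%). Ptpn13, a phosphatase that acts on B-class ephrins, was higher: it read 8.03, 8.47 and 7.90 in control and 9.45, 9.07 and 10.01 in knockdown arrays, without overlap (difference 1.37 ± 0.25, adjusted p = 0.0853 without and 0.0344 with the block). Itsn2 was also higher (0.30 ± 0.11, adjusted p = 0.44 and 0.0279) and Vav2, an exchange factor recruited by Eph receptors, lower (-0.28 ± 0.08, 0.30 and 0.0348). The list medians in knockdown cells were -0.01, 0.01 and -0.03.

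Beside these results, the promoter windows of the 8 genes called with the block fell on both sides of the CpG cut. Those of Nrp2, Sema7a, Ephb3, Epha7 and Sema4c were CpG-rich and those of Nrp1, Efnb1 and Robo2 were not, so that the neuropilins lie on either side. None of the windows of these 8 genes held the NF-κB motif or TATAAA, and 1 Sema4c window held TGANTCA.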

How the data were processed

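Total RNA of 9 cultures was measured on Affymetrix Gene 1.0 ST arrays. The deposited values are log2 signals that the authors obtained by RMA (background correction, quantile normalisation and probe summarisation), which leaves no counts or depth, so precision rests on 3 arrays per group. No software version for RMA is stated in the sources. Of 27024 transcript clusters, 21319 had 1 gene symbol, 1430 several and 4275 none; the cluster with the highest mean stood for each of 19698 genes. Groups were compared with a moderated linear model over all 9 arrays (limma 3.58.1, R 4.3.3, two-sided, Benjamini-Hochberg over all genes, called at an adjusted p under 0.05), without and with the replicate number as a block. Arrays of the same number were taken as pairs. The methods state that replicates were done on different days, but not that a number marks the same day in every group. Residual correlations were 0.21 to 0.724 between arrays of the same number and -0.566 to 0.0111 otherwise. For numbers 1 to 3 they were 0.579, 0.724 and 0.652 between the 2 control groups. Between treated control and knockdown arrays they were lower, at 0.388, 0.21 and 0.247. Residuals were taken from each group's mean. Positive correlations within a number then push those between numbers to negative values, so the ranges are not independent. The scripts were tested on simulated data. Genes were named where called in either fit, where groups did not overlap (the 6 largest differences in each direction), or where highest in their family; from the pathway lists, those called or with the largest differences. Other genes, such as Sema6d, Efna4, Epha2 and the remaining paralogues, were named after their values were seen. The members and lists were chosen with earlier results of these data known. Promoter windows, 250 bases before to 50 after the start, came from RefSeq (GRCm38.p6); the array annotation has no build stated here. Alternatives were array omission, a filter on dim genes, only the 2 groups compared, median centring, array weights, trend and robust eBayes, the lowest cluster per gene, and Student's test with a difference over 0.35 for TNF-α or 0.3 for knockdown (the methods give the test for induction only, and size alone for knockdown); those within the blocked fit were chosen after seeing the data.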

Additional observations from a re-analysis of the deposited data

How the results depend on the processing

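Without the block, 0 guidance genes were called in either direction of either comparison; the same held with the dim-gene filter, with only the 2 groups compared, and with median centring, array weights, trend and robust eBayes, or the lowest cluster per gene. With the replicate block, 1 was lower after TNF-α, and 2 were higher and 6 lower in knockdown cells; without all arrays numbered 2, the block called 2 higher (Nrp2 and Sema7a again) and 5 lower in knockdown cells (3 of the 6, Efnb1, Epha7 and Sema4c, with Efna3 and Efna4), and without all arrays numbered 1 or 3 it called 0. Leaving out single arrays without the block gave 0 to 2 higher in knockdown cells (2 without knockdown array 2) and 0 otherwise. Student's test, which the methods state for induction only, with a difference over 0.3, called 1 lower in knockdown cells before adjustment and 0 after it, whereas the study's knockdown rule of size alone gave 8 lower and 2 higher.

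Within the blocked fit, leaving out single arrays gave 0 to 1 higher and 0 to 2 lower after TNF-α, and 0 to 2 higher and 0 to 8 lower in knockdown cells; the knockdown counts were lowest, at 0 and 0, without TNF-α-treated control array 3, and 8 were lower (the 6 with Efna3 and Efna4) without knockdown array 2. Leaving out all arrays of number 1, 2 or 3 gave 0, 0 and 0 lower after TNF-α. With only the 2 groups compared, 1 was higher after TNF-α, and 0 higher and 0 lower in knockdown cells. Array weights gave 2 higher and 3 lower after TNF-α. The full fit had 4 residual degrees of freedom with the block and 6 without it, and leaving out arrays lowers these. The cause of the shifts between settings was not tested. For the named genes, 0 of 335 alternative values were reversed. These genes were chosen because they were called with the block or because their groups did not overlap, so this count does not measure robustness. Where groups do not overlap, leaving out arrays in these settings cannot reverse the sign. Of the 68 values from fits with the block, 15 newly passed the threshold, which includes the calls that got the genes named. Without the block 2 of the 267 did (Nrp2 and Sema7a, without knockdown array 2). Dim signals limit the lowest genes, whose height over background was not tested.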
